A study of Mus musculus with 6 samples.

Results

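The genes described here are the 34 genes of cholesterol and fatty acid supply that were named for this account by function, out of 47729 genes counted in lung endothelial cells (ECs) of mice. They comprise 7 enzymes of the mevalonate and isoprenoid steps, 11 sterol enzymes from squalene onwards, 6 genes of SREBP control and sterol transport, 5 genes of the LXR receptors and their targets, and 5 genes of lipogenesis. All 34 were found in the count tables by their GENCODE symbols, and all 34 had enough counts to be tested. The rule that lists them uses their function and no measured value, but it was written with earlier results of these data known.

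RNA-seq was performed on 3 wild-type (WT) and 3 leene-KO libraries. The KO mice carry a CRISPR deletion of the leene region in every tissue on the C57BL6 background, and the WT mice are their littermates. All mice were males, 14 weeks old, kept on normal chow and given angiotensin II (AngII) at 1000 ng/kg/min for 2 weeks from an osmotic pump, so both genotypes are seen under AngII and neither without it. The labels describe CD31-enriched lung cells and the study's methods a selection with CD144 beads. According to the labels the cells of 3 mice per group were pooled, so it is not clear whether each library is a single mouse or part of a pool, and p-values measure the spread between libraries, which may be technical. The leene transcripts were not analysed here, so the genotype of a library was not checked against its counts.

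Cells make cholesterol from acetyl-CoA through mevalonate and squalene. When membrane sterol is low, the escort protein SCAP carries SREBP factors from the endoplasmic reticulum to the Golgi, where they are cut and released to switch on sterol and fatty acid genes, and INSIG proteins hold SCAP back when sterol is plentiful. LXR receptors sense oxidised sterols and switch on export pumps. In the lung, alveolar type II epithelial cells make large amounts of lipid for surfactant and are known for high expression of lipogenic genes, and ECs can take up lipid from the blood.

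The libraries held 24464324 to 35184063 counts in WT and 26159650 to 29189294 in KO. Endothelial markers were present throughout, with Pecam1 between 313 and 582 CPM in WT and between 379 and 563 CPM in KO, where CPM are counts per 1000000 counts of a library after TMM scaling. The 12 endothelial markers summed to 2104 to 3772 CPM in WT and 2379 to 3851 CPM in KO. Of these, 10 had a log2 fold change above 0 and 2 below, with a median of 0.14. Kdr alone did not overlap, at 93.3, 108 and 138 CPM in WT and 264, 161 and 195 CPM in KO (log2 fold change 0.87). Its adjusted p was 0.313 in edgeR and 0.0541 in DESeq2. Of all genes tested, 8.59% were higher in KO without overlap. Markers of other lung cells were present as well. The 10 alveolar type II markers summed to 5650, 52914 and 16313 CPM in the WT libraries and to 41732, 50698 and 41175 CPM in the KO libraries, so WT replicate 2 was above all KO libraries and the other WT libraries far below them. Over all genes, WT replicate 2 was nearer to the KO libraries (chi-square per degree of freedom 44.5 to 73.9) than any WT library was to another (167 to 284), while KO libraries differed among themselves by 37.0 to 49.2. WT replicate 3 was also nearer to a KO library (91.0, KO replicate 1) than to any WT library. WT replicate 1 was the furthest from the KO libraries (200 to 299). The genotype of every library rests on its label alone, and the calls and medians below are also given without WT replicate 2. In bulk RNA, fewer cells of a type and less RNA per cell cannot be told apart.

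Promoter sequences are shown for 3 members because SREBP factors bind short DNA letters close to the start site, often next to a box bound by the factor NF-Y. RefSeq entries on GRCm38.p6 gave 36 promoter windows for 27 of the 34 genes, each reaching from 250 bases before the transcription start to 50 after it. Below, the 200 bases before the start are printed in the gene's own direction, with capitals for the NF-Y box CCAAT, which is read as ATTGG where it lies on the opposite strand, and for the sterol regulatory core TCACNCCAC. Hmgcs1 (chr13:119690151-119690350, plus strand) is shown as the only gene with the sterol regulatory core among the 27 that had windows. Msmo1 (chr8:64733579-64733778, minus strand) is shown for its levels in the WT libraries, and Mylip (chr13:45389542-45389741, plus strand) as the member with the lowest adjusted p.
Hmgcs1: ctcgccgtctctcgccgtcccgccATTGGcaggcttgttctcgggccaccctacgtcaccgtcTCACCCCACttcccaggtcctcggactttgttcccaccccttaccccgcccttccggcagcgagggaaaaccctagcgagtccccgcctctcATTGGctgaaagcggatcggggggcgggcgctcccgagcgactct
Msmo1: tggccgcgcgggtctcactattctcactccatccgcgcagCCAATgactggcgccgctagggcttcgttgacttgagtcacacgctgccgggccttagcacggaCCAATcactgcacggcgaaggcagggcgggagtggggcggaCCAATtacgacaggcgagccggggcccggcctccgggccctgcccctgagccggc
Mylip: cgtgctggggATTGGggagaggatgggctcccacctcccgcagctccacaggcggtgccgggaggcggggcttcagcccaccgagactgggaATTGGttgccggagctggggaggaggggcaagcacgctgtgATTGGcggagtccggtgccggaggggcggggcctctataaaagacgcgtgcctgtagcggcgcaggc
Searched on both strands, TCACNCCAC occurred in 1 of the 36 windows of the members (2.78%), against 1.24% of all 32851 windows of mouse genes, and there it did not overlap a CCAAT box. CCAAT occurred in 22 of the 36 windows (61.1%), against 37.4% of all windows, and in 21 of the 27 genes. These are letter matches and not measured binding sites.

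Per length, the desaturase Scd1, which puts a double bond into saturated fatty acids, was the most abundant member by far. Its mean level was 578 RPKM (CPM divided by the length of the gene in kilobases), followed by its paralog Scd2 at 63.7 RPKM, the ATP citrate lyase gene Acly at 15.1 RPKM and Mylip at 14.9 RPKM. Scd1 made up 43.8% of the summed RPKM of the 34 genes in WT replicate 1 and 66.4% to 75.2% in the other libraries. At the low end stood Acaca (0.545 RPKM), Fdps (0.194 RPKM) and Idi1 (0.180 RPKM). These low values are uncertain, because reads with several alignments were not counted and 52.6% of the 50-base stretches of the Acaca transcript, 45.9% of those of Acat2, 21.3% of Idi1, 11.7% of Fdps and 10.9% of Fdft1 also occur in transcripts of other genes. Scd1 and Scd2 share 4.66% and 4.01% of such stretches with other transcripts, mostly with each other.

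**Figure D1:**
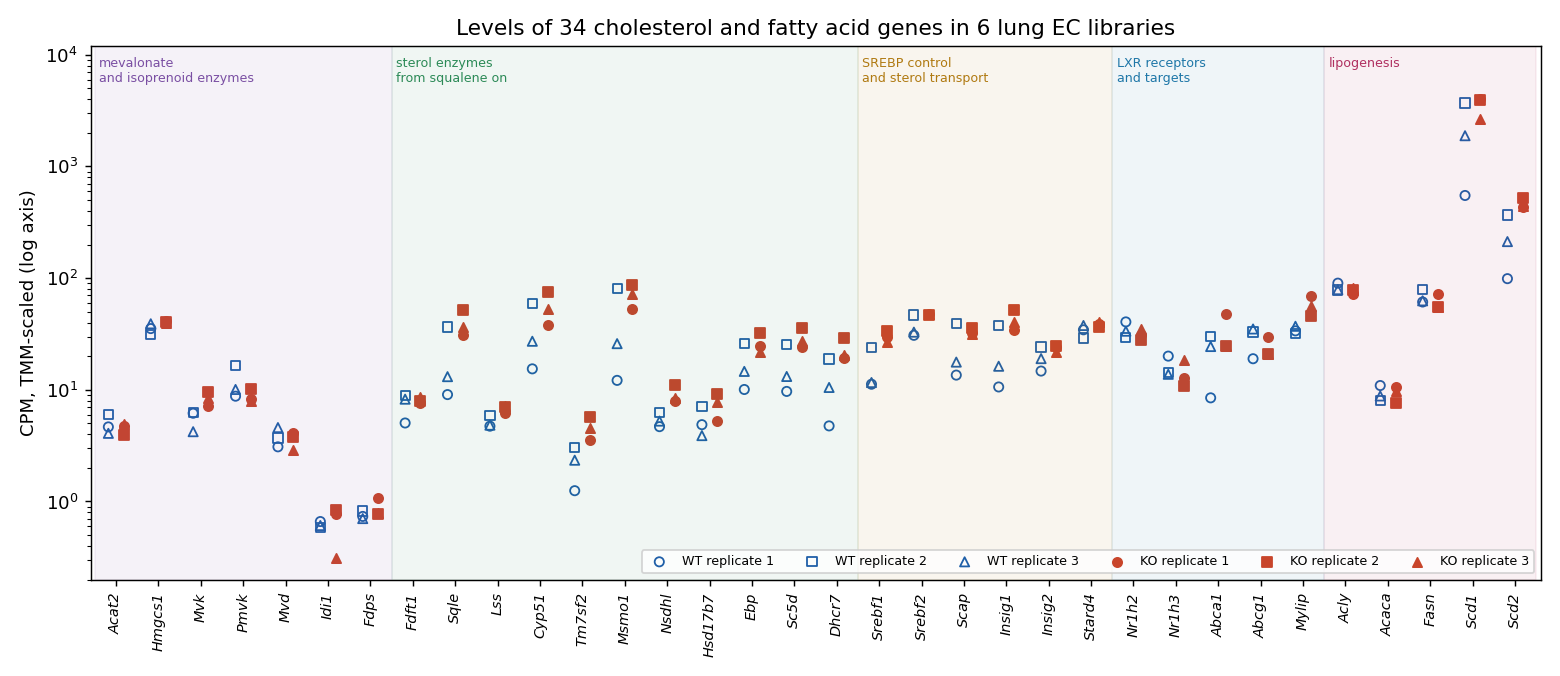
Level of each of the 34 genes in CPM (log axis) in the 3 WT libraries (open symbols) and the 3 KO libraries (filled symbols), ordered by role and with 1 symbol shape per replicate number. Scd1 lies highest, between 549.6 and 4034 CPM, and among sterol enzymes such as Msmo1 the open square of WT replicate 2 sits beside the KO libraries while the other WT libraries lie lower.

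Between WT and KO, no member passed the test. With the quasi-likelihood test of edgeR, adjusted by Benjamini-Hochberg over 14625 genes, 0 of 34 had an adjusted p under 0.05 (lowest 0.259, Mylip), where 0.109% of all genes tested were called, and DESeq2 also called 0 of 34 against 1.21% of its genes. The direction was mostly upwards: 26 members had a log2 fold change above 0 and 8 below 0, with a median of 0.44, while 54.1% of all genes were above 0 with a median of 0.03. At an unadjusted p under 0.05, 8 members were higher in KO (Mvk, Lss, Tm7sf2, Nsdhl, Sc5d, Srebf1, Mylip and Scd2) and 0 were lower, against 5.62% and 4.68% of all genes. The WT and KO libraries did not overlap for 9 members, all higher in KO, where 8.59% of all genes were higher and 9.2% lower without overlap. For a single gene, the exact permutation test of 3 against 3 libraries cannot give a p under 0.1.

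The mevalonate and isoprenoid enzymes, which turn acetyl-CoA into isoprene units, had fold changes of both signs. Of the 7, 4 were above 0 and 3 below, with a median log2 fold change of 0.05. Mvk, the kinase that phosphorylates mevalonate, was measured at 6.17, 6.25 and 4.21 CPM in WT and at 7.13, 9.60 and 8.49 CPM in KO. All KO libraries lay above all WT libraries, by a log2 fold change of 0.59 ± 0.21 (SE), but the adjusted p was 0.428 in edgeR. Hmgcs1, the synthase that feeds the pathway with HMG-CoA, was at 35.3, 31.2 and 39.0 CPM in WT and 41.4, 40.6 and 39.9 CPM in KO. Again the libraries did not overlap, although the nearest values of the groups were 39.0 and 39.9 CPM, and the log2 fold change was 0.21 ± 0.13 (SE; edgeR adjusted p = 0.584).

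The next kinase of the route, Pmvk, had the lowest log2 fold change of the members (-0.42 ± 0.25 SE; edgeR adjusted p = 0.583). Its libraries read 8.76, 16.4 and 10.1 CPM in WT and 8.30, 10.1 and 7.86 CPM in KO. The groups overlapped and WT replicate 2 was the highest, without which the log2 fold change was -0.14. Fdps, the farnesyl diphosphate synthase, was near the detection limit at 0.734, 0.822 and 0.702 CPM in WT and 1.07, 0.772 and 0.793 CPM in KO, with overlapping groups. The others (Acat2, Mvd and Idi1) had log2 fold changes from -0.12 to 0.05, and Idi1 had as few as 9 counts in a library.

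The sterol enzymes were higher in KO throughout by their fitted values. All 11 had a log2 fold change above 0, from 0.13 (Fdft1) to 1.06 (Tm7sf2), with a median of 0.76. Of all genes tested, 54.1% were above 0. For 4 of the 11 the groups did not overlap, with KO higher, as was so for 8.59% of all genes. Nsdhl (ENSMUSG00000031349, chrX:72918557-72958514 on GRCm38), which removes a methyl carbon from the sterol ring, had the lowest adjusted p of these enzymes. Its libraries read 4.68, 6.28 and 5.24 CPM in WT and 7.95, 10.9 and 8.49 CPM in KO. No KO library came near a WT library, and the log2 fold change was 0.76 ± 0.20 (SE), at an adjusted p of 0.299 in edgeR and 0.16 in DESeq2.

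Tm7sf2, a sterol reductase, had the largest fold change. It was measured at 1.25, 3.05 and 2.34 CPM in WT and at 3.52, 5.70 and 4.52 CPM in KO. The groups were apart, with a log2 fold change of 1.06 ± 0.36 (SE; edgeR adjusted p = 0.405). Tm7sf2 overlaps the gene Vps51 on the same strand, and reads in both genes were not counted. Lss, the cyclase that forms lanosterol, was at 4.72, 5.87 and 4.82 CPM in WT and 6.19, 7.03 and 7.21 CPM in KO. Its groups were also apart, by a smaller log2 fold change of 0.41 ± 0.17 (SE; edgeR adjusted p = 0.484).

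Sqle and Dhcr7 differed as much on average but varied widely among WT libraries. Sqle, the epoxidase that turns squalene into its epoxide, read 9.06, 36.4 and 13.1 CPM in WT and 31.1, 51.4 and 36.6 CPM in KO. WT replicate 2 fell inside the KO range, and the log2 fold change was 1.02 ± 0.48 (SE; edgeR adjusted p = 0.509). Dhcr7, a reductase of the last steps to cholesterol, read 4.75, 18.9 and 10.5 CPM in WT and 19.1, 29.1 and 20.6 CPM in KO. The groups were apart only by the gap between 18.9 and 19.1 CPM, and the log2 fold change was 1.02 ± 0.44 (SE; edgeR adjusted p = 0.491). Cyp51, Msmo1, Hsd17b7, Ebp and Sc5d had log2 fold changes between 0.47 and 0.85, all with overlapping groups.

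Among the genes of SREBP control, the factor Srebf1 and the brake Insig1 had the largest log2 fold changes. Srebf1 (ENSMUSG00000020538, chr11:60199089-60222581), the factor that drives fatty acid genes in particular, read 11.2, 24.0 and 11.6 CPM in WT and 29.6, 33.4 and 26.6 CPM in KO. All KO libraries lay above the highest WT library, with a log2 fold change of 0.93 ± 0.30 (SE) and an adjusted p of 0.383 in edgeR and 0.155 in DESeq2. The gene counts do not separate the isoforms of Srebf1. Insig1, itself a target of SREBP factors, read 10.6, 37.8 and 16.2 CPM in WT and 34.4, 51.9 and 40.8 CPM in KO. The groups overlapped through WT replicate 2 (log2 fold change 0.97 ± 0.43 SE; edgeR adjusted p = 0.494).

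Scap, the escort of the SREBP factors, showed the same arrangement at 13.5, 39.3 and 17.7 CPM in WT and 32.2, 36.01 and 31.3 CPM in KO. Here WT replicate 2 was above every KO library, and the log2 fold change was 0.50 ± 0.36 (SE; edgeR adjusted p = 0.636). Srebf2, the factor that drives sterol genes, Insig2 and the sterol carrier Stard4 had log2 fold changes of 0.19 to 0.36 with overlapping groups. Of the 6 genes, 6 were above 0 with a median of 0.43, where 54.1% of all genes were above 0.

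The LXR receptors and their targets had fold changes of both signs as well. Of the 5 genes, 2 were above 0 and 3 below, with a median of -0.14. Mylip (ENSMUSG00000038175, chr13:45389742-45412019) encodes a ubiquitin ligase that sends lipoprotein receptors to degradation. It read 33.7, 32.0 and 37.0 CPM in WT and 69.1, 46.1 and 56.3 CPM in KO. The WT libraries were close together and all KO libraries above them, so that WT averaged 34.2 ± 2.57 CPM and KO 57.1 ± 11.6 CPM (SD, n = 3 each). The log2 fold change was 0.74 ± 0.17 (SE), at an adjusted p of 0.259 in edgeR and 0.0584 in DESeq2, which made Mylip the member nearest to the threshold in both.

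The export pumps had fold changes of opposite sign, and neither passed the test. Abca1, which loads cholesterol onto apolipoprotein A-I, read 8.47, 30.1 and 24.4 CPM in WT and 48.2, 24.7 and 24.8 CPM in KO. Its groups overlapped, with WT replicate 1 the lowest and KO replicate 1 the highest library (log2 fold change 0.64 ± 0.46 SE; edgeR adjusted p = 0.635). Abcg1, which exports sterol to mature HDL particles, read 19.0, 33.0 and 35.0 CPM in WT and 29.9, 20.7 and 21.0 CPM in KO, again with overlap (log2 fold change -0.28 ± 0.26 SE; edgeR adjusted p = 0.701). The receptors themselves, Nr1h2 and Nr1h3, had log2 fold changes of -0.14 and -0.20 with overlapping groups.

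In lipogenesis, the largest fold changes were those of the desaturases, and none passed the test. Scd2 (ENSMUSG00000025203, chr19:44293676-44306864) read 98.9, 368 and 212 CPM in WT and 438, 523 and 444 CPM in KO. The groups did not overlap, and the log2 fold change was 1.05 ± 0.42 (SE; edgeR adjusted p = 0.471). Scd1 read 549.6, 3693 and 1884 CPM in WT and 4034, 3951 and 2673 CPM in KO. WT replicate 2 lay within the KO range, the WT libraries differed by up to 6.72-fold, and the log2 fold change was 0.80 ± 0.62 (SE; edgeR adjusted p = 0.647).

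The enzymes that supply the desaturases had fold changes near 0. Fasn, the fatty acid synthase, read 61.1, 78.9 and 62.6 CPM in WT and 72.6, 55.4 and 54.7 CPM in KO (log2 fold change -0.15 ± 0.17 SE; edgeR adjusted p = 0.756). Acly and Acaca, which make cytosolic acetyl-CoA and malonyl-CoA, had log2 fold changes of -0.09 and 0.01. For all 3 the groups overlapped, and the sign of Acaca depended on the scaling.

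**Figure D2:**
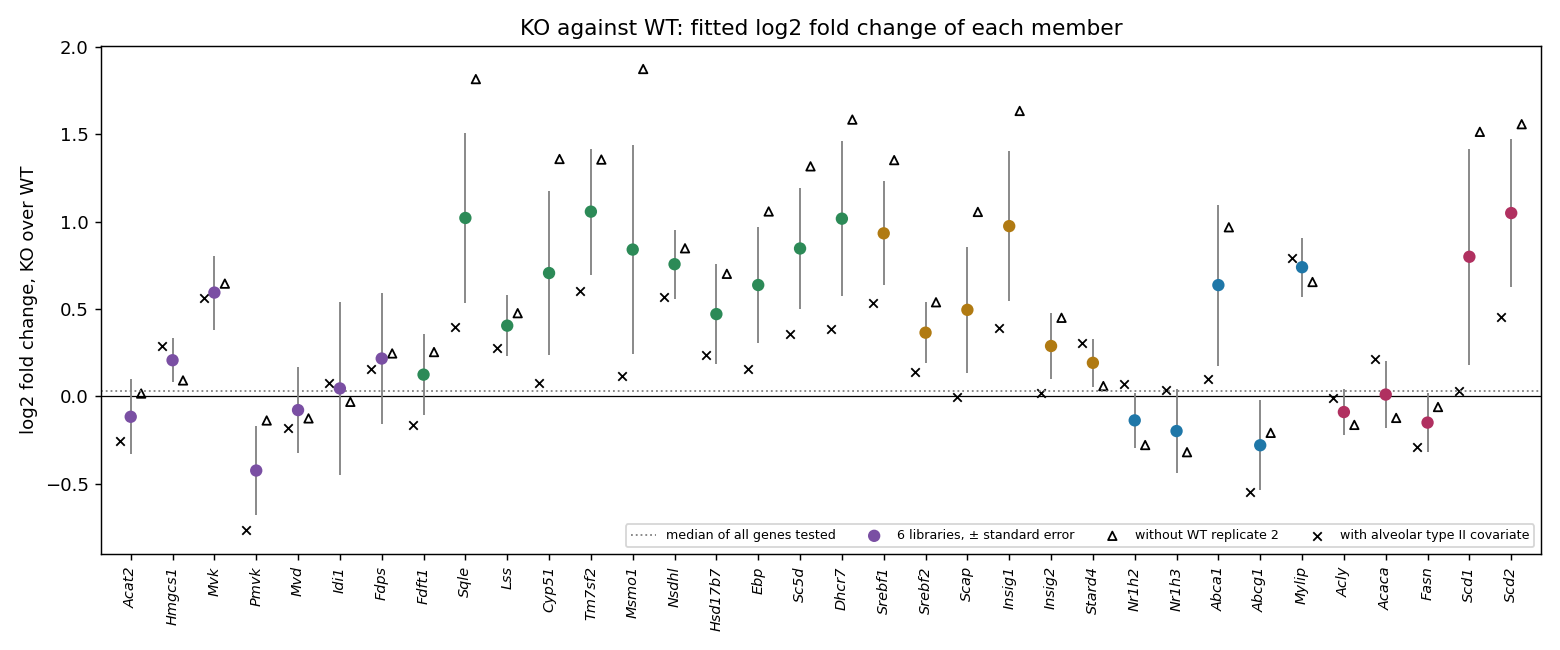
Log2 fold change of KO over WT for each gene: filled points from all 6 libraries with bars of ± 1 standard error, triangles without WT replicate 2, crosses with the alveolar type II markers as a covariate, and a dotted line at the median of all genes tested (0.03). For sterol enzymes such as Sqle the triangle lies above the point (1.81 against 1.02) and the cross below it (0.40), while for Mylip all 3 lie between 0.65 and 0.79.

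The members were spread more widely in WT than in KO, and so were the libraries over all genes. Chi-square per degree of freedom was 167 to 284 among WT libraries and 37.0 to 49.2 among KO libraries. The spread below was not computed for all genes, so it is not a trait particular to the members. Across the 3 WT libraries the highest level of a member was 1.13 to 6.72 times its lowest (median 1.70), and for 13 members it was over 2-fold. In KO the range was 1.03 to 2.73 (median 1.39), and only Idi1, with 9 counts in KO replicate 3, was over 2-fold. WT replicate 2 exceeded WT replicate 1 by more than 2-fold for 13 of the 34 members, against 17.1% of all genes tested. These were Sqle, Cyp51, Tm7sf2, Msmo1, Ebp, Sc5d, Dhcr7, Srebf1, Scap, Insig1, Abca1, Scd1 and Scd2, with log2 ratios of 1.10 (Srebf1) to 2.75 (Scd1). None of the 7 mevalonate and isoprenoid enzymes was among them, and Mylip, Hmgcs1 and Mvk had log2 ratios of -0.08, -0.18 and 0.02.

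Alveolar type II markers differed between the same libraries. Of the 10 markers, 9 were more than 2-fold higher in WT replicate 2 than in WT replicate 1, with a median log2 ratio of 3.06, among them the surfactant gene Sftpc (3.55) and the lysosomal gene Lamp3 (3.84). Most other cell lists also had a median ratio above 0. It was 1.41 for neutrophils, 1.22 for T cells, 1.08 for macrophages and 1.08 for club and ciliated cells. Mesenchyme had 0.98, B cells 0.78 and endothelial cells 0.23, while adipocytes (-0.08) and erythroid cells (-0.79) were below 0. Between genotypes, 10 of 10 alveolar type II markers had a log2 fold change above 0 with a median of 0.79, and 0 passed edgeR's test. Without WT replicate 2 their median was 1.86 and 3 passed, all higher in KO, where 4.41% of all genes tested were called higher. Summed club and ciliated cell markers ranged from 15364 to 40426 CPM in WT and from 33578 to 56791 CPM in KO, and summed macrophage markers from 110 to 265 CPM in WT and from 168 to 337 CPM in KO. B cell markers summed to 11.2 to 23.2 CPM in WT and 78.3 to 83.4 CPM in KO, with 8 of 8 above 0. In edgeR 3 of them passed the test, where 0.109% of all genes tested were called. Adipocyte markers summed to 60.3 to 97.4 CPM in WT and 45.5 to 60.3 CPM in KO, with 1 of 7 tested above 0 and Ucp1 under 1 CPM in every library. The part of these cells in the results was not tested. In the fits that follow, the alveolar type II level and genotype cannot be told apart.

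**Figure D3:**
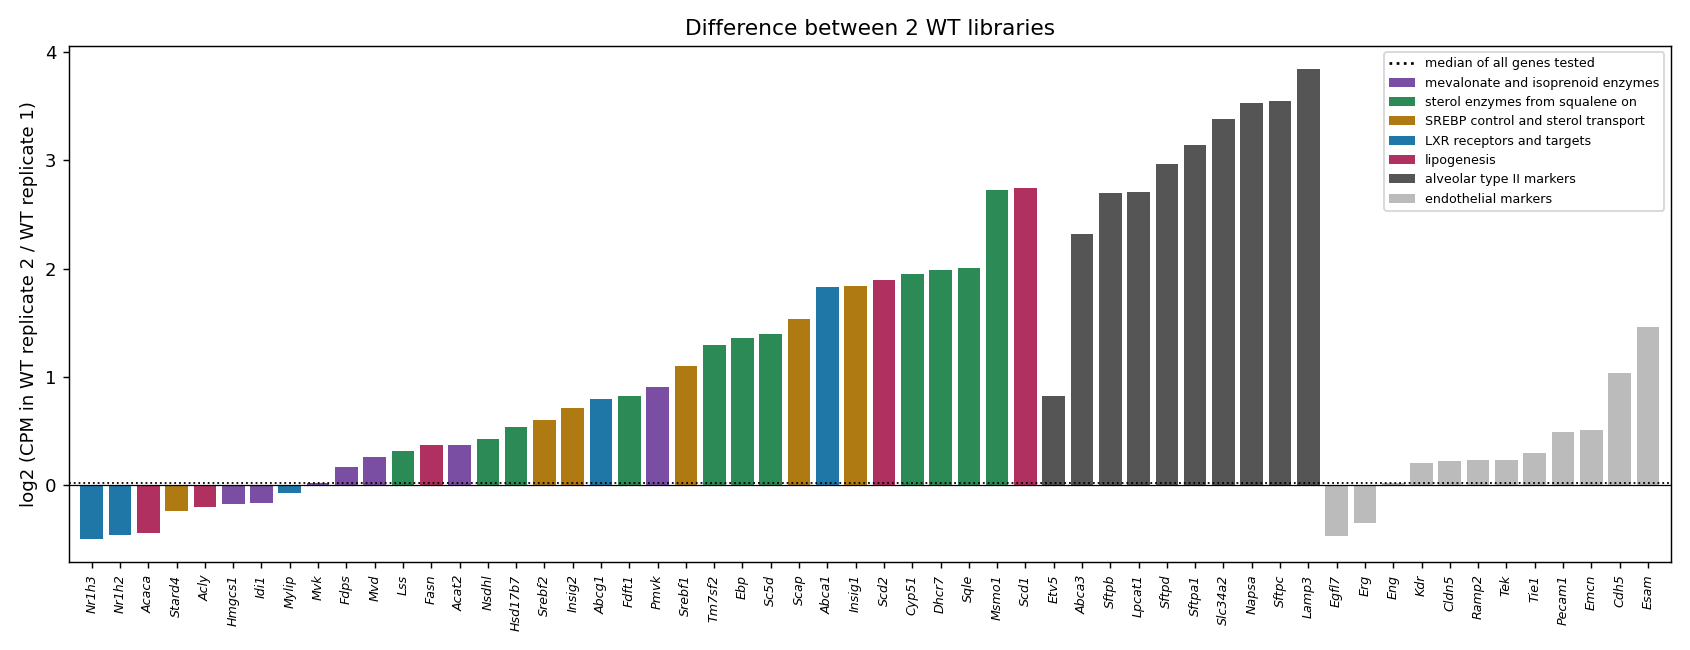
Log2 ratio of the CPM in WT replicate 2 to that in WT replicate 1 for the 34 genes (coloured by role), the 10 alveolar type II markers (dark grey) and the 12 endothelial markers (light grey), with a dotted line at the median of all genes tested (0.02). Scd1 and Msmo1 reach 2.75 and 2.73, next to a median of 3.06 for the alveolar type II markers, and Nr1h3 is lowest at -0.49.

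Without WT replicate 2, 10 of the 34 members passed edgeR's test, all of them higher in KO, where 4.41% of all genes tested were called higher. The 10 were the sterol enzymes Msmo1 (log2 fold change 1.87), Sqle (1.81), Dhcr7 (1.58), Sc5d (1.32) and Ebp (1.06), the SREBP control genes Insig1 (1.63), Srebf1 (1.35), Scap (1.06) and Srebf2 (0.54), and the desaturase Scd2 (1.56). Their adjusted p-values lay between 0.0212 (Srebf1) and 0.0487 (Srebf2). The median of the sterol enzymes was 1.32 in place of 0.76. No LXR gene and no mevalonate enzyme passed. Cyp51 (1.36, adjusted p = 0.0584) and Scd1 (1.51, adjusted p = 0.147) did not pass this edgeR fit, although their log2 fold changes were higher than the 0.71 and 0.80 from all libraries. The median over the 34 genes was 0.59, with 0.80 for SREBP control, 0.02 for the mevalonate enzymes, -0.21 for the LXR genes and -0.06 for lipogenesis. In each fit that left out 1 of the other 5 libraries, 0 members passed. Leaving out WT replicate 2 removes the WT library nearest to KO, so larger fold changes follow for genes in which it lay beside KO. Of the 10 calls without it, 9 were members over 2-fold higher in WT replicate 2 than in WT replicate 1. Alveolar type II markers summed to 5650 and 16313 CPM in the WT libraries left, and to 41175 to 50698 CPM in KO. In this fit, genotype and that level cannot be told apart.

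When the level of 5 surfactant-related markers of alveolar type II cells (Lamp3 and the surfactant genes Sftpa1, Sftpb, Sftpc and Sftpd, averaged as log2 CPM) entered as a covariate, the fold changes of the members were smaller by their median. The median over the 34 genes was 0.15 in place of 0.44, and that of the sterol enzymes 0.28 in place of 0.76. The median of all genes tested was 0.015 in this fit. Of the 34 members 26 were above 0, against 7612 of all 14625 genes tested. Msmo1 had a log2 fold change of 0.12, Cyp51 of 0.08 and Scd1 of 0.03, each with a cross near 0 in the plot of fold changes. At an unadjusted p under 0.05 in edgeR, Mylip (0.79), Nsdhl (0.57), Srebf1 (0.53) and Scd2 (0.46) were higher in KO and Pmvk (-0.77) was lower, against 5.82% and 5.33% of all genes. With adjustment, 0 of 34 passed, where 0.335% of all genes were called, and the lowest adjusted p of a member was 0.194 (Pmvk).

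Ratios of related members within a library do not depend on library scaling, but the part of the cell mix in them was not tested. In WT, the ratios of Srebf1 to Srebf2, Abca1 to Abcg1 and Insig1 to Insig2 were highest in replicate 2. That library also had the highest alveolar type II markers in WT. The ratio of Srebf1 to Srebf2 RPKM was 0.323, 0.455 and 0.313 in WT and 0.550, 0.635 and 0.491 in KO. All KO ratios were above all WT ratios, by 0.63 on the log2 scale, at an exact two-sided permutation p of 0.1, the smallest that 3 against 3 allows, and 0.25 after adjustment over the 5 ratios. The ratio of the pumps Abca1 to Abcg1 was 0.175, 0.358 and 0.273 in WT and 0.632, 0.467 and 0.465 in KO, also without overlap (log2 difference 1.001, exact permutation p = 0.1, adjusted 0.25). For Insig1 over Insig2 the ratios were 0.809, 1.76 and 0.960 in WT and 1.59, 2.37 and 2.11 in KO, which overlapped (log2 difference 0.85, exact permutation p = 0.2, adjusted 0.333).

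The ratios of the other related genes showed no such separation. Scd1 was 6.27, 11.3 and 10.005 times Scd2 in WT and 10.4, 8.51 and 6.78 times Scd2 in KO (log2 difference -0.08, exact permutation p = 0.8). Nr1h2 was 1.52, 1.55 and 1.82 times Nr1h3 in WT and 1.85, 1.96 and 1.41 times Nr1h3 in KO (log2 difference 0.08, exact permutation p = 0.8). The groups overlapped in both.

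**Figure D4:**
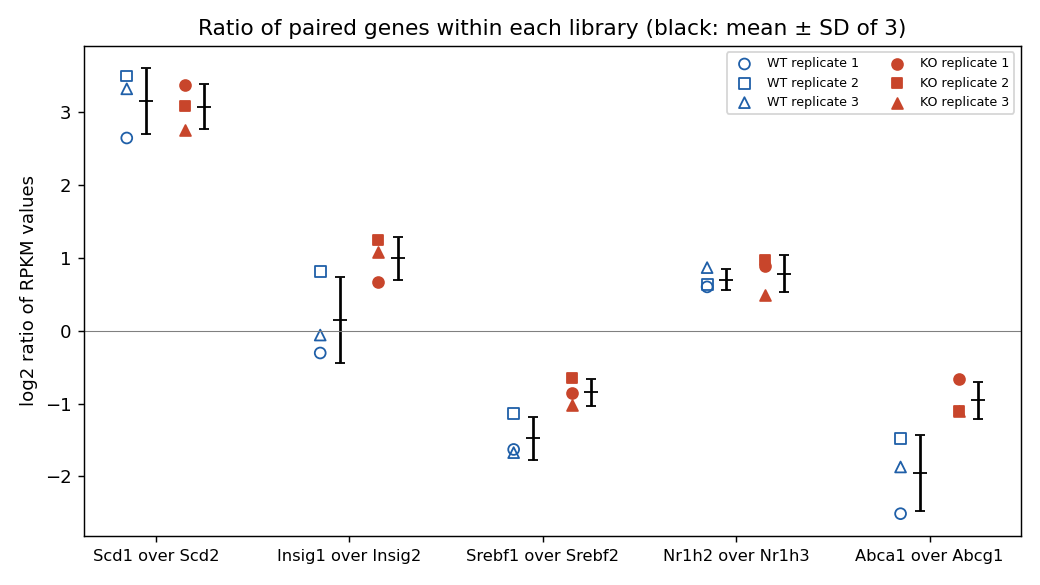
Log2 ratio of the RPKM values of 5 pairs of related genes in each library (open symbols WT, filled symbols KO), with bars of mean ± SD of the 3 libraries per group. The groups are apart for Srebf1 over Srebf2 (WT mean -1.48, KO mean -0.85) and for Abca1 over Abcg1 (WT mean -1.96, KO mean -0.95) and overlap for the other 3 pairs.

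Further genes of the pathway were taken from 4 lists of 51 genes, of which 46 had enough counts. In edgeR 0 of 46 passed and in DESeq2 1 did, while at an unadjusted p under 0.05 in edgeR 7 were higher and 2 lower in KO, where the shares over all genes were 5.62% and 4.68%. The called shares over all genes were 0.109% in edgeR and 1.21% in DESeq2. Log2 fold changes were above 0 for 35 and below 0 for 11, with a median of 0.31. The 21 tested genes linked to SREBP factors, among them fatty acid elongases and desaturases, had 18 above 0 and 3 below (median 0.32). The 12 of SREBP processing and sterol storage had 10 above and 2 below (median 0.34), the 9 of LXR partners 4 above and 5 below (median -0.09), and the 4 of sterol oxidation 3 above and 1 below (median 0.47). Without WT replicate 2, 10 of these genes passed edgeR's test, all higher in KO, against 4.41% of all genes tested.

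The gene that DESeq2 called was Ch25h, whose product makes 25-hydroxycholesterol, a sterol that holds SREBP processing back and activates LXR. It read 2.89, 4.87 and 6.04 CPM in WT and 1.63, 1.43 and 2.04 CPM in KO. All KO libraries lay below all WT libraries. The log2 fold change was -1.42 ± 0.33 (SE) with an adjusted p of 0.259 in edgeR, and -1.45 with an adjusted p of 0.014 in DESeq2.

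The elongase gene Elovl1 and the sterol-regulated gene Tmem97 had the largest upward values in their list. Elovl1 read 81.7, 564 and 219 CPM in WT and 649.7, 748 and 631 CPM in KO (log2 fold change 1.23 ± 0.59 SE; edgeR adjusted p = 0.516). Tmem97 read 2.40, 14.1 and 6.18 CPM in WT and 15.7, 18.3 and 16.2 CPM in KO (log2 fold change 1.15 ± 0.53 SE; edgeR adjusted p = 0.503). For both the groups were apart, with WT replicate 2 nearest to KO. Soat1, which stores cholesterol as esters, read 35.9, 175 and 82.5 CPM in WT and 209, 222 and 152 CPM in KO, with overlap through the same library (log2 fold change 0.99). Without WT replicate 2 all 3 passed edgeR's test, with log2 fold changes of 2.14 for Elovl1 (adjusted p = 0.0326), 1.97 for Tmem97 (adjusted p = 0.0312) and 1.68 for Soat1 (adjusted p = 0.0404). Npc2 (0.51), Smpdl3a (0.76) and Cyp39a1 (0.72) were the others named from their lists, and with all libraries 0 of these 3 passed in edgeR or DESeq2. Without WT replicate 2, Smpdl3a (1.18, adjusted p = 0.0352) and Cyp39a1 (1.38, adjusted p = 0.0219) passed edgeR's test and Npc2 (1.22, adjusted p = 0.114) did not.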

How the data were processed

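Gene counts of 3 WT and 3 KO libraries were analysed as deposited. Per the file headers and the submitters' processing notes, the authors aligned single reads of 50 bases from stranded polyA libraries with STAR 2.5.4b and deposited whole-number counts per gene from featureCounts (Subread 2.0.0), over exons of the Ensembl release 84 annotation of GRCm38, on the reverse strand. The paper's methods also name hg38 and TPM values from Kallisto, and TPM values were not used here. Reads with several alignments or in several genes were dropped. Of 47729 genes, 47224 were given a symbol from GENCODE M21.

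Genes were kept by filterByExpr, scaled by TMM (factors 0.874 to 1.37) and tested for genotype in R 4.3.3 with edgeR 4.0.16 (glmQLFit and glmQLFTest), with Benjamini-Hochberg adjustment over 14625 genes and a threshold of 0.05. CPM and RPKM use the TMM-scaled totals, and n is 3 libraries per group. The members, lists, tests and alternatives were chosen with earlier results of these data known. The alternatives were DESeq2 1.42.0, limma-voom 3.58.1, RLE and total-count scaling, mitochondrial genes left out, no filter, at least 10 counts in every library, a replicate block, a covariate of 5 alveolar type II genes, and each library left out in turn. Values in every library are given for members whose groups do not overlap, members past the threshold in edgeR or DESeq2 and the 3 of each role with the largest absolute log2 fold change. Of the further lists, genes past the threshold in either tool are named, and otherwise the 2 with the largest absolute log2 fold change among genes with a mean log2 CPM above 1. A gene that this rule names is not reported here. The fit was also run on simulated counts with 200 changed genes. These were drawn for each gene independently, without the shared differences among the WT libraries, so that run does not show how the fit behaves with them. No other columns of per-sample values were used, and no library pair held identical counts.

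Mitochondrial genes took 37.4% to 54.5% of the counts. The common biological coefficient of variation was 0.256. Same-numbered WT and KO libraries had correlations of -0.08, 0.22 and 0.01 in their deviations from the group means, so the numbers were not taken to pair the mice.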

Additional observations from a re-analysis of the deposited data

How the results depend on the processing

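Of 509 log2 fold changes of members under 15 alternatives, 476 kept their sign and their side of the threshold, 23 changed sign and 10 passed the threshold that the value from all libraries did not. The median log2 fold change of the members kept its sign under every alternative, at 0.25 to 0.59 with a library left out, 0.28 with total counts and 0.15 with the alveolar type II covariate. Members with an adjusted p under 0.05 numbered 0 to 10 with a library left out, with 10 without WT replicate 2 and 0 under the other alternatives. Among the further lists the calls were 1 (Ch25h) with DESeq2, with total counts and without a filter, and 0 to 10 with a library left out, 10 of them without WT replicate 2. Over all genes the 16 calls (5 higher in KO, 11 lower) became 187 with DESeq2 (88 higher), 26 with limma-voom, 26 with RLE scaling, 123 with total counts (61 higher), 152 without a filter (87 higher), 49 with the covariate (8 higher) and 0 to 791 with a library left out, 0 without any KO library and 791 without WT replicate 2. Total-count scaling moved the median of all genes by -0.17 on the log2 scale, and no other scaling moved it by over 0.1.

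Acaca (0.01) was -0.023 with DESeq2, -0.018 with RLE scaling, -0.0073 with limma-voom, -0.013 without mitochondrial genes, -0.19 with total counts and -0.12 to 0.14 with a library left out. Idi1 (0.05) was -0.10 with limma-voom, -0.16 with total counts, -0.018 with the replicate block and -0.24 to 0.38 with a library left out. With the covariate, Fdft1 was -0.16, Nr1h2 0.073, Nr1h3 0.037, Scap -0.0051 in place of 0.50 and Npc2 -0.18 in place of 0.51. With a library left out, Fdft1 ran from -0.10 (without WT replicate 1) to 0.25, Acat2 from -0.25 to 0.017 (without WT replicate 2), and Mvd from -0.21 to 0.060 (without WT replicate 3). The cause was not tested. Ch25h passed the threshold with DESeq2 (-1.45), total counts (-1.51) and no filter (-1.42).

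Blocking on the replicate number, which was not taken as a pairing, left 0 genes called over the whole table. It gave the members a median of 0.44, 0 calls and a lowest adjusted p of 0.311 in edgeR. Not every library correlated best with the library of its own number.

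Sqle and Dhcr7, with log2 fold changes of 1.02, did not pass the test with WT libraries that differed 4.02-fold and 3.97-fold. Idi1 and Fdps had a mean of 18.3 and 23.7 counts, so their values rest on few reads, and counts of genes with near-identical copies are uncertain. The groups were measured under AngII only.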
